A study of Homo sapiens with 2 samples.

Results

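The motor proteins that walk along microtubules are encoded by the kinesin genes, most of which carry KIF symbols, and by the cytoplasmic dynein genes. Members were taken by symbol from the deposited table: every KIF or KIFC symbol of the numbered kinesin families, and 12 symbols of the heavy, intermediate, light intermediate and light chains of cytoplasmic dynein. This gave 54 genes, 42 kinesins and 12 dynein subunits, of 39720 symbols in the table. The RNA came from A549, an established human lung adenocarcinoma cell line, infected with lentivirus that carried a control hairpin (shNC) or one directed at DEPDC1B (shDEPDC1B). Polybrene at 5 µg/mL was present in both infections, and cells were collected on day 2. Total RNA was sequenced in bulk, with 1 library in each group. Nothing below has a replicate check, no p-value was computed, and each difference is one between 2 libraries.

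Kinesins share a motor domain that hydrolyses ATP, and most move towards the plus ends of microtubules. One set of them builds and works the mitotic spindle: they slide microtubules apart, shorten their ends, push chromosome arms or organise the midzone at cytokinesis. Transcripts of many spindle kinesins rise in G2 and mitosis. Another set hauls vesicles, organelles and membrane proteins in cells at any stage. Cytoplasmic dynein-1 is the main motor towards minus ends. It is built on a very large heavy chain, with intermediate, light intermediate and light chains that bind cargo and the cofactor dynactin. Dynein-2 is the retrograde motor of cilia. Heavy chains of dynein are among the longest proteins a cell makes, and its light chains among the shortest. In a bulk library a larger share of cells in a phase and more RNA per cell cannot be told apart.

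Each library held 18647290 counts (shNC) or 18862371 counts (shDEPDC1B), which are estimated counts rounded to whole numbers. DEPDC1B, the targeted gene, had 329 counts in shNC and 39 in shDEPDC1B, a log2 ratio of -3.00 [-3.51, -2.52]. Here and below the ratio is shDEPDC1B over shNC after TMM scaling, and square brackets hold an exact Clopper-Pearson 95% interval of counting error only. A gene counted as assessed if either library held at least 30 counts, and was called higher or lower at 1.5-fold or more with an interval that excludes equality. Keratins KRT8 and KRT18, epithelial markers, had 106007 and 99179 counts in shNC and 103507 and 97608 in shDEPDC1B. Of the other epithelial markers KRT7 (0.28) and CDH1 (-0.14) were not called, and EPCAM, with 37 and 65 counts, was called higher (0.89). Among the leukocyte markers CD3E was at 0 in both libraries, and PTPRC had 0 and 2 counts. CD68, which tumour cell lines also express, was the leukocyte marker that was assessed (690 and 495 counts). The summed level of the leukocyte markers was 36.4 CPM (counts scaled to library size) in shNC and 27.8 in shDEPDC1B. For 5 fibroblast markers it was 9.44 and 11.8 CPM (DCN at 0 in both), and for 5 endothelial markers 15.3 and 29.6 CPM, nearly all of it EGFL7 (282 and 530 counts, with KDR at 0 in both). Their part in the results was not tested.

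Promoter sequences are shown first, because most spindle kinesins hold words tied to cell cycle control. In the ratios as measured, spindle kinesins with the same words in their promoters did not all differ in 1 direction. Windows from 250 bases before to 50 after the start of each gene were taken from RefSeq (GRCh38.p14), and 45 of the 54 members matched. The following words were searched on both strands: TTTGAA and TTCGAA, forms of the cell cycle homology region that represses genes outside G2 and mitosis, and CCAAT, the core of the NF-Y box. TTCGAA is its own reverse complement, and no word contains another. The 120 bases before the start of 6 members are printed 5′ to 3′ on the strand of the gene. Capitals mark matches on either strand, so that ATTGG is CCAAT and TTCAAA is TTTGAA read on the other strand. KIF4A was higher in shDEPDC1B and KIF11 not called, and both hold the pair of words before the start. KIF18B was higher and KIF14 lower, and in both CCAAT stands before the start while a TTTGAA match begins 2 bases (KIF18B) or 1 base (KIF14) after it, beyond the bases printed. KIF13A, a transport kinesin, and DYNC2H1, the dynein-2 heavy chain, were lower and hold none of the words.
KIF4A, chrX:70289984-70290103, plus strand: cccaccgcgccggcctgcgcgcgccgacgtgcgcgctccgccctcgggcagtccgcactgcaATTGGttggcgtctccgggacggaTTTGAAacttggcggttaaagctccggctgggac
KIF18B, chr17:44947774-44947893, minus strand: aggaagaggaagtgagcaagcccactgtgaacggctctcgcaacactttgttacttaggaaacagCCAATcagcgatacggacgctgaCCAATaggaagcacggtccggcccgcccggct
KIF11, chr10:92593010-92593129, plus strand: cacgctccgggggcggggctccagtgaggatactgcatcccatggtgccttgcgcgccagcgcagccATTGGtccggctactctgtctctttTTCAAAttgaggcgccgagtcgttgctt
KIF14, chr1:200620752-200620871, minus strand: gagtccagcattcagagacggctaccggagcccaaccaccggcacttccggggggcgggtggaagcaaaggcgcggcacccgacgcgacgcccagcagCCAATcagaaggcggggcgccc
KIF13A, chr6:17987636-17987755, minus strand: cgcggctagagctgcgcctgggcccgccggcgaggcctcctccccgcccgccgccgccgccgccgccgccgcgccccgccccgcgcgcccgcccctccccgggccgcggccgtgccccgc
DYNC2H1, chr11:103109306-103109425, plus strand: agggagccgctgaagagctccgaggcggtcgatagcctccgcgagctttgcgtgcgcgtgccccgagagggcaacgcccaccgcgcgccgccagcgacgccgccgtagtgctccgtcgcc

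TTTGAA or TTCGAA stood in the windows of 11 of 15 mitotic kinesins (73.3%), against 1 of 12 transport kinesins with a window (8.33%) and 0 of 11 dynein subunits. Of all 27305 promoter windows 16.6% held one of these words, and of the 10317 windows of assessed genes 11.1%. CCAAT stood in 11 of the 15 mitotic windows (73.3%), where all promoters gave 35.7%, and the CCAAT word together with TTTGAA or TTCGAA stood in 10 of the 15 (66.7%, against 6.58% of all promoters). In the mitotic windows the first base of the TTTGAA or TTCGAA matches lay between -55 and 30, where 0 is the RefSeq start. The transport kinesin with both kinds of word was KIF5B. A match is a string of letters and no measured site. Among the 13 assessed mitotic kinesins, the 10 with TTTGAA or TTCGAA split into 3 higher, 2 lower and 5 not called, with a median log2 ratio of 0.21 that ran from -0.74 to 1.23. The 2 lower, KIF14 and KIF20B, were not called once a trend on transcript length was subtracted (-0.15 and -0.35). Of the 3 higher, KIF4A was not called with DESeq2 size factors or library totals. The 3 without TTTGAA or TTCGAA, KIF20A, KIF2C and KIF2A, split into 2 higher and 1 not called. Of these, KIF2C was not called with library totals (0.55) or after the trend on length was subtracted (0.51). Other forms of the cell cycle homology region were not searched, so lack of these words does not show lack of the region.

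Of the 54 members 46 were assessed, and 8 of these were higher in shDEPDC1B and 13 lower. Over all 13850 assessed genes 19.2% were called higher and 19.6% lower, so the share of members called higher (8 of 46) was near the background, and that called lower (13 of 46) was larger than the background. The latter did not hold once a trend on transcript length was subtracted, when 6 of 46 members and 14.9% of all genes were lower. The median log2 ratio of the 46 members was -0.09, against 0.04 over all assessed genes. The 8 members under 30 counts were KIF1A (29 and 24 counts), a neuronal vesicle motor, KIF6 (18 and 12), KIF4B (1 and 2), KIF25 (2 and 1), KIF26B (2 and 0), DYNC1I1 (2 and 2), and KIF19 and KIF2B with 0 in both libraries. A count of 0 allows a level of up to 0.156 CPM in shNC and 0.164 CPM in shDEPDC1B, taking 3 counts as the limit. Scaling by library totals in place of TMM gave 14.6% of all genes higher and 23.2% lower.

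**Figure D1:**
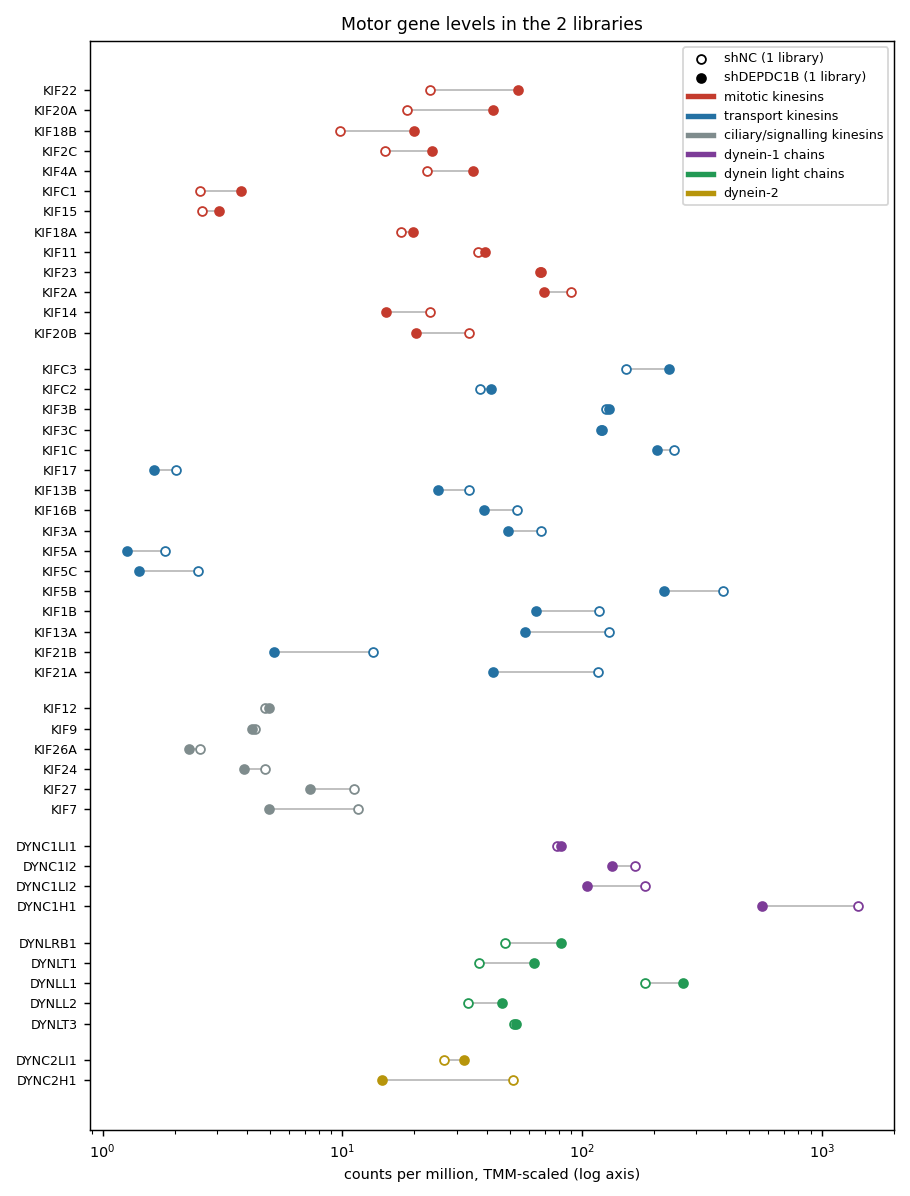
Level of each assessed motor gene in shNC (open circles) and shDEPDC1B (filled circles), 1 library each, in TMM-scaled CPM on a log axis, grouped by role and ordered by ratio. KIF22 went from 23.1 to 54.1 CPM, and DYNC1H1, the most abundant by reads, from 1416 to 564 CPM.

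The mitotic kinesins had a higher median than the transport kinesins. Against 19.2% of all assessed genes higher and 19.6% lower, 5 of the 13 assessed members were called higher, 2 lower and 6 neither. Their median log2 ratio was 0.24, and 10 ratios exceeded 1. The median is the value of KIF15, a gene with few and uncertain counts, and was 0.17 among the 11 members with at least 100 counts. Their summed level was 364 CPM in shNC and 414 CPM in shDEPDC1B. The 5 higher members were KIF22, KIF20A, KIF18B, KIF2C and KIF4A, and the 2 lower ones KIF20B and KIF14.

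KIF22, a chromokinesin that pushes chromosome arms towards the spindle equator, had 446 counts in shNC and 987 in shDEPDC1B. Its log2 ratio of 1.23 [1.06, 1.39] was the highest of all 46 members, a level 2.34-fold higher. The gene lies on chromosome 16, 29790719 to 29805385, plus strand (GRCh38, GENCODE 29), and shares 13.0% of its exon bases with an antisense gene. KIF4A, the other chromokinesin assessed, which also acts in the spindle midzone, had 437 and 640 counts, a log2 ratio of 0.63 [0.45, 0.81]. Its call was lost when DESeq2 size factors or library totals were used, at 0.58 and 0.53, or after a loess on mean expression (0.58). KIF4B, an intronless near copy of KIF4A, had almost no counts.

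KIF20A, which carries the chromosomal passenger complex to the midzone for cytokinesis, had 360 and 773 counts, 2.27-fold higher, with a log2 ratio of 1.18 [1, 1.37]. KIF20B, a midzone motor of the same family, had 653 and 369 counts and was 1.67-fold lower, at -0.74 [-0.93, -0.56]. Per kilobase of annotated transcript KIF20A stood at 1.11 times KIF20B in shNC and at 4.20 times in shDEPDC1B. The annotated transcript of KIF20A has 3201 nucleotides and that of KIF20B 6419. After a loess on transcript length was subtracted, KIF20A was at 1.10 and KIF20B at -0.35. KIF23, the motor of the centralspindlin complex at the midzone, had 1294 and 1236 counts, a pair that counting error does not separate (0.01 [-0.10, 0.13]). KIF14, which recruits the kinase CIT at cytokinesis, had 448 and 277 counts and was lower, at -0.61 [-0.84, -0.39].

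The kinesins that act on microtubule ends differed among themselves as well. KIF18B, which shortens astral microtubules, had 188 and 364 counts, a log2 ratio of 1.03 [0.78, 1.29]. KIF18A, which dampens chromosome movements at the metaphase plate, had 338 and 359 counts, with an interval that holds equality (0.17 [-0.05, 0.39]). KIF2C, the microtubule depolymerase at centromeres, had 292 and 432 counts and was higher, at 0.64 [0.43, 0.86]. It was not called with library totals (0.55), after a loess on mean expression (0.58) or after one on transcript length (0.51). After a linear fit on length and GC content it was called (0.59). KIF2A, the depolymerase at spindle poles that also acts in neurons and other resting cells, had 1742 and 1272 counts. Its interval lay below equality without reaching 1.5-fold, at -0.37 [-0.48, -0.27]. KIF2A shares 9.0% of its exon bases with IPO11 on the same strand.

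The motors that set up the bipolar spindle were not called. KIF11, the sliding motor that pushes the poles apart, had 712 and 717 counts (0.09 [-0.06, 0.24]). KIF15, which can take over part of that role, had 50 and 56 counts (0.24 [-0.33, 0.82]). KIFC1, a motor towards minus ends that clusters centrosomes, had 49 and 69 counts (0.57 [0.02, 1.13]), just under 1.5-fold. KIFC1 shares 12.7% of its exon bases with a pseudogene on the other strand. The sign of KIF11 and KIF23 differed between the scalings tried. The deposited values of KIFC1, KIF15 and the transport kinesin KIF5C were not whole hundredths until multiplied by 4, 2 and 2, so they may be averages over gene copies and their counts and intervals are uncertain.

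**Figure D2:**
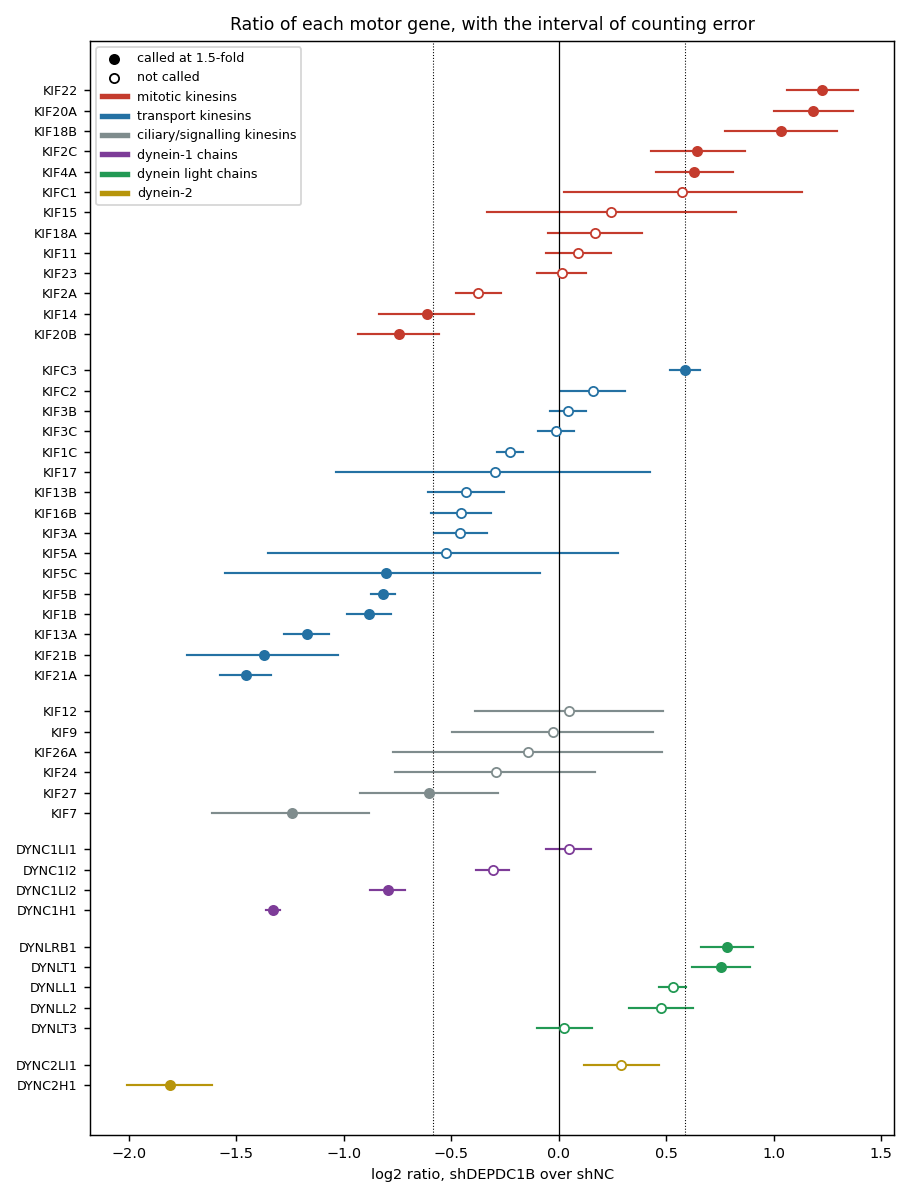
Log2 ratio of shDEPDC1B over shNC for each assessed motor gene (points) with its exact 95% interval of counting error (lines), from 1 library per group. Filled points were called at 1.5-fold (dotted lines); mitotic kinesins run from -0.74 to 1.23 and transport kinesins from -1.46 to 0.59.

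Transport kinesins were mostly on the lower side in the ratios as measured. Of 16 assessed members 6 were called lower and 1 higher, against 19.6% and 19.2% of all assessed genes. In 13 the ratio was below 1, and the median log2 ratio was -0.46, which put the mitotic median 0.70 above it. The combined counting error of the genes at the middle of each group gives 0.11 to 1.29 around that difference. This range covers neither the spread among genes nor which gene lies in the middle, and is no test of the groups. With a filter of 100 counts the difference was 0.62 and the range 0.36 to 0.88. After a loess on transcript length 6 of the 16 transport kinesins lay above 0, where 3 had as measured. KIF13B (0.14) and KIF1C (0.29) were among those that changed sign, and the transport median was then -0.21. The summed level of transport kinesins was 1609 CPM in shNC and 1238 CPM in shDEPDC1B. The ranges of the 2 groups overlapped widely, since KIF20B and KIF14 lay below the transport median and KIFC3 lay above the mitotic one.

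KIF21A and KIF21B, paralogs that restrain microtubule growth and carry cargo in neurons and other cells, were the lowest of the transport group. KIF21A had 2249 and 776 counts, 2.74-fold lower (-1.46 [-1.57, -1.34]), and KIF21B had 260 and 95 counts, 2.59-fold lower (-1.37 [-1.73, -1.03]). The ratio of each lay within the interval of the other, and per kilobase KIF21A stood at 13.0 times KIF21B in shNC and 12.2 times in shDEPDC1B. KIF13A, which moves recycling endosomes and melanosome cargo, had 2504 and 1052 counts (-1.17 [-1.28, -1.07]). KIF13B, its paralog, had 650 and 456 counts, and its interval lay below equality without reaching 1.5-fold (-0.43 [-0.61, -0.26]).

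KIF5B, the widely expressed conventional kinesin heavy chain that moves mitochondria and lysosomes, had 7495 and 4021 counts, 1.76-fold lower (-0.82 [-0.87, -0.76]). Per kilobase it was the most abundant kinesin in shNC at 66.1 CPM per kilobase, and in shDEPDC1B it came behind KIFC3, at 37.5 against 67.2. The neuronal paralogs KIF5A (35 and 23 counts) and KIF5C (48 and 26) were barely detected, and KIF5C was called lower with a wide interval (-0.80 [-1.55, -0.09]). KIF1B, a carrier of mitochondria and synaptic vesicle precursors, had 2282 and 1170 counts (-0.88 [-0.99, -0.78]). KIF1C, its paralog that returns vesicles to the cell edge, had 4649 and 3758 counts, a smaller difference (-0.23 [-0.29, -0.16]).

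The kinesin-2 genes, whose products KIF3A and KIF3B or KIF3C pair to drive intraflagellar and vesicle transport, were not called. KIF3A had 1298 and 894 counts, with an interval below equality (-0.46 [-0.58, -0.33]). KIF3B (2434 and 2373 counts, 0.04 [-0.04, 0.13]) and KIF3C (2345 and 2201 counts, -0.01 [-0.10, 0.07]) did not differ beyond counting error. Per kilobase KIF3A stood at 0.515 of KIF3B in shNC and 0.364 in shDEPDC1B. KIF16B, a motor of early endosomes, had 1036 and 715 counts (-0.46 [-0.59, -0.32]), and KIF17, a motor of dendrites and cilia, 39 and 30.

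KIFC3, a motor towards minus ends at adherens junctions and the Golgi, was the transport kinesin called higher, with 2954 and 4199 counts. It stood at the threshold, at 1.502-fold (0.59 [0.52, 0.66]), and was not called with DESeq2, library total or upper-quartile scaling, where its log2 ratio ran down to 0.49, nor after any trend was subtracted (0.56 after length). KIFC2, a neuronal relative, had 723 and 763 counts (0.16 [0.01, 0.31]) and shares 17.8% of its exon bases with FOXH1.

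The remaining kinesins, with roles in cilia, centrioles or signalling, were low. Of 10 members 6 were assessed, with a summed level of 40.4 CPM in shNC and 28.3 in shDEPDC1B. Of these 6, 2 were called lower, against 19.6% of all assessed genes. KIF7, the scaffold of Hedgehog signalling at the tip of the primary cilium, had 225 and 90 counts, 2.37-fold lower (-1.24 [-1.61, -0.88]). KIF7 shares 11.8% of its exon bases with TICRR on the other strand. KIF27, a relative of KIF7 tied to motile cilia, had 215 and 134 counts (-0.60 [-0.92, -0.28]). KIF24, which trims centrioles and holds back cilium growth, had 92 and 71 counts (-0.29 [-0.76, 0.17]). KIF9, KIF12 and KIF26A had between 42 and 92 counts and intervals that hold equality. KIF9 shares 14.9% of its exon bases with an antisense gene.

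The dynein genes ranged from the lowest ratio of any assessed member to moderately higher ones. Of 11 assessed subunits 3 were called lower, DYNC1H1, DYNC1LI2 and DYNC2H1, and 2 higher, the light chains DYNLRB1 and DYNLT1. Over all assessed genes 19.6% were called lower and 19.2% higher, so the share of subunits called higher was near the background. The median log2 ratio of the 11 was 0.05, and its sign changed to -0.01 with DESeq2 size factors and -0.05 with library totals. The heavy, intermediate and light intermediate chains of dynein-1 summed to 1843 CPM in shNC and 884 in shDEPDC1B, of which DYNC1H1 alone made up 1416 and 564 CPM. The light chains summed to 354 and 510 CPM.

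DYNC1H1, the heavy chain that holds the motor of dynein-1, had 27307 counts in shNC and 10282 in shDEPDC1B, the most reads of any member in each. It was 2.51-fold lower, at -1.33 [-1.36, -1.30]. The gene lies on chromosome 14, 101964510 to 102056443, plus strand (GRCh38, GENCODE 29), and its longest coding transcript is annotated with 20003 nucleotides. DYNC1LI2, a light intermediate chain that links the motor to cargo adaptors, had 3517 and 1917 counts (-0.80 [-0.88, -0.71]) and shares 21.6% of its exon bases with an antisense gene. DYNC1LI1, the other light intermediate chain, had 1521 and 1486 counts, with no difference beyond counting error (0.05 [-0.06, 0.15]). Per kilobase DYNC1LI1 stood at 0.780 of DYNC1LI2 in shNC and at 1.40 in shDEPDC1B. DYNC1I2, the intermediate chain expressed outside neurons, had 3195 and 2443 counts (-0.31 [-0.38, -0.23]).

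All 5 light chain genes had a ratio above 1, and 4 of them had intervals above equality. The sign of the fifth, DYNLT3, differed between the scalings. DYNLRB1, the roadblock light chain, had 919 and 1495 counts (0.78 [0.66, 0.90]), and DYNLT1, a Tctex-type light chain, had 719 and 1147 (0.75 [0.62, 0.89]). DYNLL1, the LC8 light chain that also serves as a dimerising hub for many proteins outside dynein, had 3539 and 4833 counts (0.53 [0.47, 0.59]), and its paralog DYNLL2 had 647 and 850 (0.47 [0.32, 0.62]). DYNLT3 had 1008 and 971 counts (0.03 [-0.10, 0.15]). Per kilobase, DYNC1H1 stood at 0.531 of DYNLL1 in shNC and 0.146 in shDEPDC1B, and among the 12 dynein genes it went from rank 2 to rank 6. These proportions and ranks depend on the longest annotated transcript, which was used as divisor. That divisor is the same in both libraries, so the change between libraries is that of the ratios as measured. After a loess on transcript length was subtracted, DYNC1H1 was at -0.50 and DYNLL1 at 0.04.

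The 2 dynein-2 genes lay on opposite sides of equality. DYNC2H1, the heavy chain, had 993 and 268 counts, 3.51-fold lower and the lowest ratio of any assessed member (-1.81 [-2.01, -1.61]). DYNC2LI1, the light intermediate chain of dynein-2, had 510 and 590 counts (0.29 [0.12, 0.46]). Per kilobase the heavy chain stood at 0.413 of the light intermediate chain in shNC and 0.0964 in shDEPDC1B. After the loess on length DYNC2H1 was at -1.09 and DYNC2LI1 at 0.15.

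Transcript length and GC content moved with these differences. Across the 46 members, the Spearman correlation of the log2 ratio with annotated transcript length was -0.71, against -0.51 over 13020 assessed genes with a length. These are correlations across genes of the same 2 libraries, and genes are not independent replicates. It was -0.65 over 13 mitotic kinesins, -0.62 over 16 transport kinesins and -0.76 over 11 dynein subunits. The correlation with the GC content of the transcript was 0.84 over the mitotic kinesins, 0.60 over the transport kinesins, 0.30 over the dynein subunits and 0.20 over all 46 members, against 0.38 over all genes. The median annotated transcript was 3723 nucleotides for mitotic and 6214 for transport kinesins. Of the mitotic kinesins, the 2 with the longest transcripts were the 2 called lower, KIF14 with 7274 nucleotides and KIF20B with 6419. In the 542 assessed genes of the table with transcripts of 10000 nucleotides or more, among them DYNC1H1, DYNC2H1 and KIF1B, the median log2 ratio was -0.67, with quartiles of -1.21 and -0.23. In the 2188 genes between 1000 and 2000 nucleotides, among them DYNLL1 and DYNLRB1, it was 0.48.

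**Figure D3:**
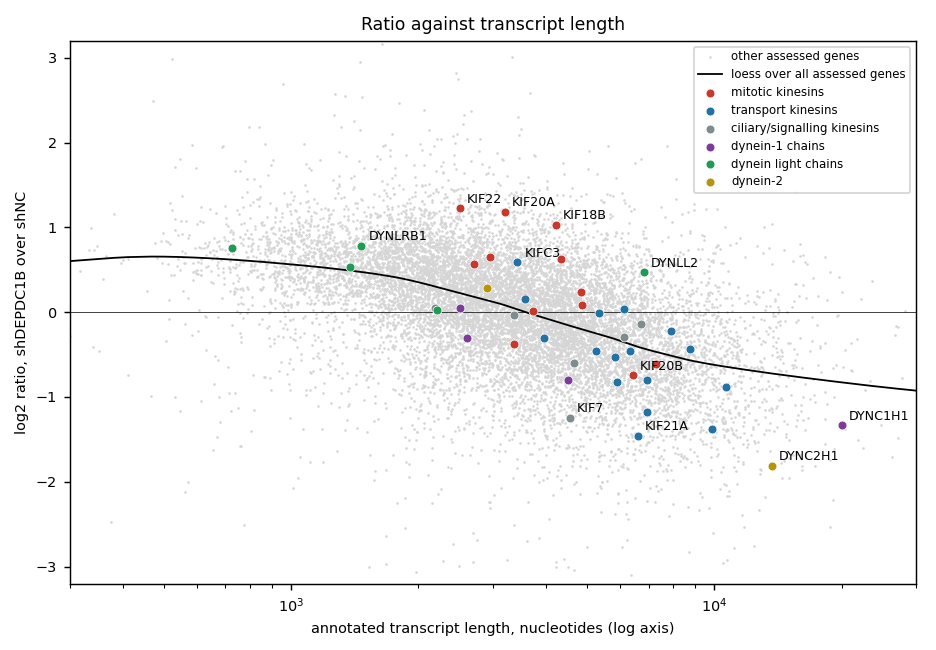
Log2 ratio of shDEPDC1B over shNC against annotated transcript length (log axis) for assessed genes (grey) and motor genes (colours). The line is a loess over all assessed genes. Length is that of the longest coding transcript, or of the longest transcript in genes without a coding one. DYNC2H1 at 13678 nucleotides and KIF7 at 4551 lie below the line, and KIF22, KIF20A, KIF18B and DYNLL2 above it. Genes beyond the limits of the axes are not drawn.

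After a loess of the log2 ratio on transcript length over all assessed genes was subtracted, the mitotic median was 0.39 and the transport median -0.21, a difference of 0.60 where it had been 0.70. The combined counting error of the middle genes then gave -0.13 to 1.33, a range that held 0 and is no test of the groups. The mitotic median was then the value of KIFC1, whose counts are uncertain. Over all genes 12.9% were then higher and 14.9% lower. Of the 8 members called higher 4 kept their call, KIF18B (1.14), KIF20A (1.10), KIF22 (1.001) and KIF4A (0.76). Of the 13 called lower 6 kept it: DYNC2H1 (-1.09), KIF7 (-1.08), KIF21A (-1.05), KIF21B (-0.75), KIF13A (-0.73) and DYNC1LI2 (-0.64). Of the KIF-named mitotic kinesins 0 were then called lower, KIF20B being at -0.35 and KIF14 at -0.15, although CENPE, a mitotic kinesin outside that series, was still at -1.17. DYNC1H1 went from -1.33 to -0.50, KIF1B from -0.88 to -0.24 and KIF5B from -0.82 to -0.49. A linear fit on length and GC content, added after seeing the data, differed from the loess in DYNC1H1, DYNC1LI2 and KIF2C. With that fit DYNC1H1 was called lower (-0.61), DYNC1LI2 was not called (-0.54) and KIF2C was called higher (0.59). Among the light chains DYNLT1 went to 0.13 and DYNLRB1 to 0.31. DYNLL2, whose annotated transcript of 6805 nucleotides is far longer than those of the other light chains, went from 0.47 to 0.90 and was the 1 member newly called. The part of transcript length and GC content in the differences was not tested.

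**Figure D4:**
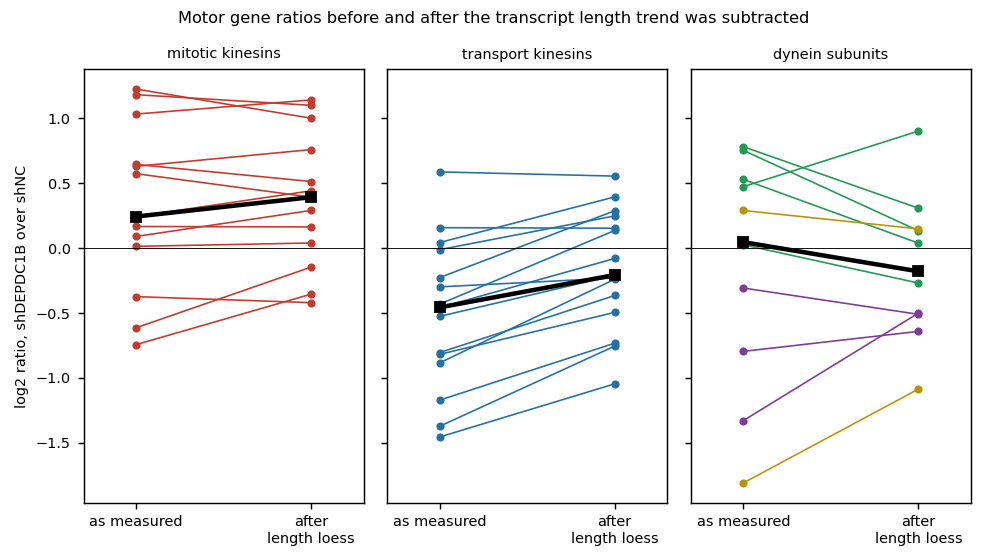
Log2 ratio of each assessed member as measured (left points) and after the loess on transcript length was subtracted (right points), for mitotic kinesins, transport kinesins and dynein subunits (purple dynein-1 chains, green light chains, ochre dynein-2). Black squares are group medians: mitotic 0.24 and 0.39, transport -0.46 and -0.21, dynein 0.05 and -0.18.

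Cofactors of the motors were read from lists of genes that are not members. Over all assessed genes 19.2% were called higher and 19.6% lower, the shares to set beside the counts of these short lists. Dynactin, the complex that makes dynein-1 processive, had 12 subunits assessed, of which 3 were called higher and 0 lower, with a median log2 ratio of 0.44. ACTR1B, an actin-related subunit of its filament, had 633 and 1229 counts (1.04 [0.90, 1.18]), and DCTN6, at the pointed end, 861 and 1330 (0.71 [0.58, 0.83]). Of 16 assessed dynein regulators and activating adaptors 1 was higher and 3 lower (median -0.14). The adaptors HOOK3 (1812 and 849 counts, -1.01 [-1.13, -0.90]) and BICD2 (1245 and 620 counts, -0.93 [-1.07, -0.79]) were lower, and BICDL1 (137 and 244 counts, 0.91 [0.60, 1.23]) higher. Kinesin light chains and cargo adaptors gave 2 higher and 2 lower of 19 (median 0.06). FEZ2, a kinesin-1 adaptor, was at 0.82 and the scaffold SPAG9 at -0.72. The mitochondrial GTPase RHOT2 (0.59) and its partner TRAK2 (-0.59), which ties kinesin-1 and dynein to mitochondria, both stood at the 1.5-fold threshold. After the loess on length HOOK3 (-0.28), BICD2 (-0.54), SPAG9 (-0.18), TRAK2 (-0.19), DCTN6 (0.17), FEZ2 (0.49) and RHOT2 (0.37) were under 1.5-fold, and ACTR1B (0.75) and BICDL1 (0.80) were past it. The medians of these lists were then 0.20 for dynactin, 0.27 for the dynein regulators and adaptors, whose sign thus changed, and 0.06 for the kinesin adaptors.

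Among 15 partners of the mitotic motors 6 were called higher and 1 lower, against 19.2% and 19.6% of all assessed genes. The median of the 15 was 0.47. The higher ones with intervals farthest from equality were AURKB, the kinase of the passenger complex that KIF20A carries, at 1.56 [1.31, 1.81] and PRC1, the midzone bundler that binds KIF4A, at 1.15 [1.04, 1.26]. RACGAP1, which forms centralspindlin with KIF23, had 811 and 818 counts (0.09 [-0.05, 0.23]), so neither partner of that complex differed beyond counting error. CENPE, the kinetochore kinesin whose symbol falls outside the KIF series, was the partner called lower. It had 392 and 112 counts, a log2 ratio of -1.73 [-2.04, -1.42], and stayed past 1.5-fold after the length loess (-1.17), on an annotated transcript of 8612 nucleotides. Of 22 assessed microtubule-associated proteins and tubulin modifiers 2 were higher and 7 lower (median -0.26). TTLL12 was at 0.97 and SVBP, the cofactor of the vasohibins that remove the terminal tyrosine of tubulin, at 0.67. MAP1B, which stabilises microtubules, was at -1.11 and the vasohibin VASH2 at -1.49. After the loess on length MAP1B (-0.43) and SVBP (0.04) were under 1.5-fold, and AURKB (1.04), PRC1 (1.23), TTLL12 (0.93) and VASH2 (-1.38) past it. The median was then 0.28 for the mitotic partners and -0.0044 for the microtubule-associated proteins and tubulin modifiers.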

How the data were processed

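RNA was measured in 2 A549 libraries, 1 for shNC and 1 for shDEPDC1B, grouped by the treatment label. The authors deposited estimated counts for each gene symbol, made with Bowtie2 and RSEM on hg38 per the submitters' processing notes. For their versions, gene annotation, strand and RNA selection the sources used here give nothing. RSEM divides reads that fit several genes by a model, an error outside the counting intervals. Reads carry no molecular identifiers in these sources, so intervals cover counting error only.

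Counts were rounded and scaled with TMM factors (1.03 and 0.967) from edgeR 4.0.16 in R 4.3.3. With 1 library per group no test could be run. Intervals came from SciPy 1.17.1. Transcript lengths are those of the longest coding transcript in GENCODE 29, or of the longest transcript in genes without a coding one. They were found for 94.0% of assessed genes, and the loess (span 0.3) used statsmodels 0.14.6. Levels per kilobase divide by these lengths, which need not be those of the transcripts expressed. Proportions and ranks between genes depend on that choice. The divisor is the same in both libraries, so changes in proportions between libraries still hold the length trend. Depth limits members with few counts most. The steps were run on simulated Poisson counts without variation between libraries, so they check the arithmetic and not calls from 1 library per group. There 0.604% of 13413 unchanged genes were called. Intervals held the true fold in 84% to 96% of the 50 genes at each simulated fold, shares that rest on few genes. They held equality in 94.95% of the 13413 unchanged genes. The members, gene lists and naming rule were chosen with earlier results of these data known. By that rule members that were called, mitotic kinesins, both heavy chains, members under 30 counts and the 3 most abundant uncalled members of each role were named, with at most 2 pathway genes in each direction, ranked by the bound of the interval closest to equality, and CENPE. The other assessed members, RACGAP1, TICRR, FOXH1 and IPO11 were named after results were seen. The 13 alternatives listed at the outset used DESeq2 1.42.0 size factors and other scalings, filters, thresholds and trends, and a linear fit on length and GC was added after seeing the data.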

Additional observations from a re-analysis of the deposited data

How the results depend on the processing

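Of the 21 called members, 8 kept their call under all 14 alternatives: KIF22, KIF20A, KIF18B, KIF7, KIF13A, KIF21A, KIF21B and DYNC2H1. Some alternatives could not remove a call from a gene they kept: the count filters, the omissions of genes and the lower fold threshold. No called member changed sign. The main counts were 8 members higher and 13 lower, 5 and 2 for mitotic kinesins, 1 and 6 for transport kinesins, and 2 and 3 for dynein subunits. With library totals 5 members and 3 mitotic kinesins were higher, against 14.6% of all genes. The count of transport kinesins called higher was 0 with DESeq2 size factors, library totals, upper-quartile factors, a threshold of 2-fold, and after either the loess on mean expression, the loess on length or the fit on length and GC. At the lower fold threshold tried, 4 of 11 dynein subunits were higher, against 31.5% of all genes. At 2-fold 3 members were higher and 6 lower, with 3 mitotic kinesins higher and 0 lower, 3 transport kinesins lower and 0 dynein subunits higher, against 5.86% of all genes higher and 8.97% lower. After the loess on length 5 members were higher and 6 lower, with 0 mitotic and 3 transport kinesins lower and 1 dynein subunit higher, where 12.9% of all genes were higher and 14.9% lower. The transport median was then -0.21 and the dynein median -0.18. After the fit on length and GC, added after seeing the data, 6 members were lower (DYNC1H1 in place of DYNC1LI2) against 13.4% of all genes, with 0 mitotic and 3 transport kinesins lower, 1 dynein subunit higher and a transport median of -0.24. Of the 8 members called higher 5 kept their call after that fit, KIF2C among them, where 13.0% of all genes were higher. Apart from thresholds and trends, whose construction sets the change, the cause was not tested. The difference of medians, mitotic minus transport, ran from 0.60 to 0.87. No paired analysis was possible because each group has 1 library. Members under about 100 counts, such as KIF15, KIFC1 and KIF5C, have intervals too wide to show a 1.5-fold difference reliably.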
